A study of Mus musculus with 10 samples.

Results

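Transcripts of 40 genes of the cell division cycle were followed in livers of mice that lack Lpcat3 in hepatocytes and in livers of their floxed controls, all with diet-induced steatohepatitis. The genes were 6 of the G1 phase (cyclins D1, D2, E1 and E2 and the factors E2F1 and E2F2), 14 of DNA replication in S phase and 20 of the G2 phase and mitosis (G2/M). They were listed by symbol and matched to the NCBI Gene numbers of a count table of 27179 genes. All 40 had a row, and all 40 were among the 15226 genes that passed the filter on low counts.

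The LKO group held 5 male C57BL/6 mice with floxed Lpcat3 alleles (Lpcat3f/f) and Cre recombinase driven by the albumin promoter (Albumin-Cre), which acts in hepatocytes. The control group held 5 male C57BL/6 mice with Lpcat3f/f alleles and no Cre. Mice of both groups ate a NASH diet, which brings on nonalcoholic steatohepatitis, for 12 weeks, at ages the labels do not state. Total RNA of whole liver gave 1 library per mouse, read by bulk RNA sequencing, and the comparison asks what loss of this phospholipid-remodelling acyltransferase does to the steatohepatitic liver.

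Lpcat3 stood at 31.1, 31.3, 38.5, 25.5 and 30.3 CPM, which are counts scaled to a common library size, in LKO livers 1 to 5, against 124, 118, 111, 95.7 and 94.1 CPM in control livers 1 to 5, so every library followed its genotype label. Libraries held 26914124 to 46727182 counts, both ends of that range being controls. In a principal component analysis of all genes, LKO 3 lay at one end of the first component, which held 56.8% of the variance, and control 4 lay among the LKO libraries, apart from the other 4 controls. Codes in the sample titles divide the mice as well. A54 stands on LKO 1, LKO 2 and control 1, A67 on LKO 3, 4 and 5, and A55 on controls 2 to 5, so A67 and A55 each hold 1 group and cannot be told apart from genotype.

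Cells enter the division cycle when D-type and then E-type cyclins activate their kinases, which inactivate the retinoblastoma protein and free E2F factors to switch on the genes of DNA replication. Genes of G2 and mitosis come on later, under the B-MYB and FOXM1 factors, and in resting cells the DREAM complex keeps both waves silent. Hepatocytes of the adult liver rarely divide but can re-enter the cycle after injury, and macrophages, stellate cells and duct cells also divide in steatohepatitis, so a whole-liver transcript does not tell which cells hold it.

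The 3 classes differed in how far LKO livers stood from controls. Over the 20 G2/M genes the median log2 fold change, LKO over control, was 1.51, a 2.84-fold higher level, and all 20 were higher in LKO livers, between 0.52 (Aurka) and 2.29 (Ccnb1). The 14 S phase genes had a median of 0.27, with 13 higher and 1 lower (Tk1), and the 6 G1 genes a median of -0.07, with 2 higher and 4 lower. The median over all 15226 genes was -0.00, and it shifted to 0.24 when libraries were scaled to total counts, a scaling under which the class medians were 1.73 for G2/M, 0.47 for S phase and 0.16 for G1.

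None of these differences passed the test across all genes. With edgeR's quasi-likelihood test and Benjamini-Hochberg adjustment, 0 of the 40 genes had an adjusted p under 0.05, against 0.0657% of all genes tested (0.0263% as higher), and the lowest edgeR adjusted p among the 40 was 0.122 (Cdk1). At an unadjusted p under 0.05 there were 19 of the 40, all higher in LKO livers, of which 17 were G2/M genes, 1 was an S phase gene (Pcna) and 1 a G1 gene (Ccnd1). Among all genes tested, 22.3% were under that limit in either direction and 12.8% in the higher direction. The 19 became 9 without LKO 3, all G2/M genes (17.2% of all genes), and 12 without control 5, all G2/M genes (17.8% of all genes). There were 30 without control 4 (33.1% of all genes). Leaving out any other single library gave counts between 9 and 30, and the share of all genes was not computed for those fits. With the title code as a term the count was 3 (2 G2/M genes and 1 S phase gene), against 4.99% of all genes. The genotype difference of that fit rests on the A54 livers alone (LKO 1 and 2 against control 1). Even Lpcat3 did not reach an adjusted p under 0.05 there, so the fit says little about these genes. DESeq2 called 6 of the 40, all G2/M genes and all higher (Bub1b, Ccna2, Ccnb2, Cdk1, Cenpe and Ube2c), where it called 7.79% of all genes, 4.16% as higher. Limma's voom method with sample quality weights, which count livers with deviating values less, called 20. Of these, 16 were G2/M, 3 S phase and 1 G1, against 16.2% of all genes called and 10% in the higher direction.

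The spread came mostly from 2 livers. Averaged over the 20 G2/M genes as log2 CPM minus the control mean, the class level was 0.71, 1.33, 2.74, 1.47 and 1.4 in LKO livers 1 to 5, against -0.53, -0.69, -0.11, 1.5 and -0.17 in control livers 1 to 5. LKO 3 was far above every other liver, LKO 1 was the lowest LKO liver, and control 4 alone among the controls stood at the level of the LKO livers. LKO livers averaged 1.53 ± 0.74 and controls 0.00 ± 0.87 on this scale (SD, n = 5 each), and without those 2 livers LKO averaged 1.23 ± 0.35 and controls -0.37 ± 0.28 (SD, n = 4 each). LKO 3 was the highest of all 10 libraries for 20 of 20 G2/M genes, LKO 1 was the lowest LKO library for 20 of 20, and control 4 was the highest control for 20 of 20.

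**Figure D1:**
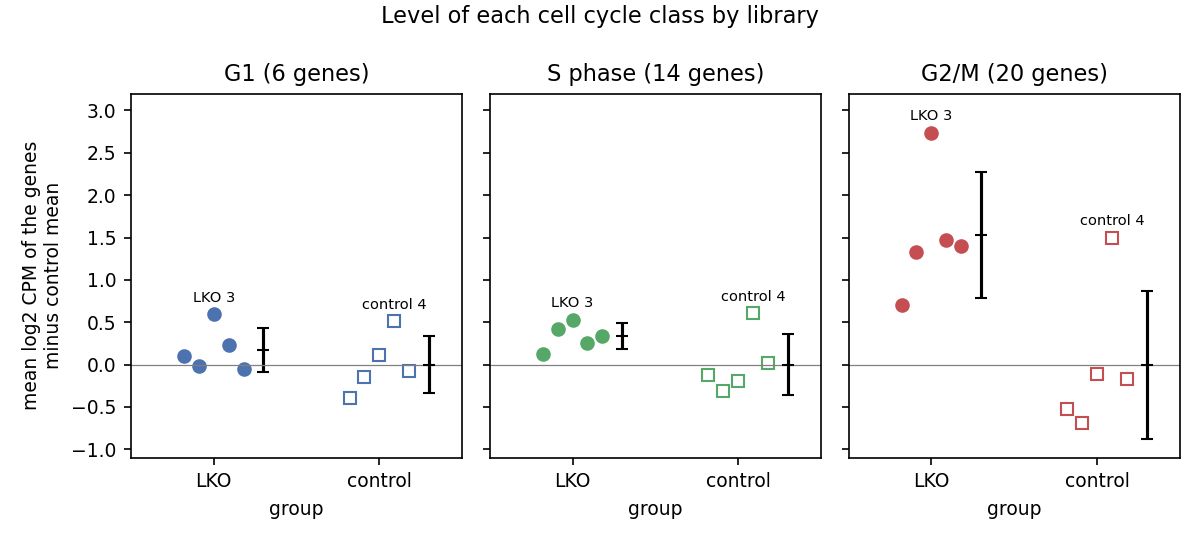
Class level in each liver: the vertical axis gives the mean log2 CPM of the 6 G1, 14 S phase or 20 G2/M genes minus the control mean, filled circles are LKO livers, open squares control livers (1 to 5 from left to right), and bars show mean ± SD (n = 5 each). In the G2/M panel the LKO livers reach from 0.71 to 2.74 (LKO 3), and the 4 controls other than control 4 lie below 0.

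S phase and G1 levels had a narrower range. For S phase the levels were 0.13, 0.42, 0.53, 0.26 and 0.34 in LKO livers 1 to 5, against -0.12, -0.31, -0.2, 0.61 and 0.02 in control livers 1 to 5, on the same scale. Control 4 was the highest of all 10 livers, and the LKO livers lay above the other 4 controls. For G1 they were 0.1, -0.02, 0.59, 0.23 and -0.05 in LKO livers and -0.4, -0.15, 0.11, 0.51 and -0.08 in control livers, where the groups were mixed.

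Without control 4, 23 of the 40 genes rose in LKO livers at an edgeR adjusted p under 0.05 and none fell: 17 G2/M genes, 5 S phase genes (Mcm2 to Mcm6) and 1 G1 gene (Ccnd1). That fit called 15.0% of all genes, 10.2% as higher. The class medians were then 2.19 for G2/M, 0.47 for S phase and -0.03 for G1. Because control 4 was the highest control for 34 of the 40 genes, leaving it out widened the gap by construction. Without control 4 and LKO 3 together, 23 of the 39 genes tested rose and none fell, against 15.6% of all genes called and 9.87% called as higher, and the medians were 1.66, 0.45 and -0.02. These 23 held 17 G2/M, 5 S phase and 1 G1 gene, with Birc5 in place of Aurkb, which was the gene not tested there. Both livers were the extremes of their groups for the G2/M genes, so leaving them out narrowed the spread within the groups by construction. The counts and p-values without them describe the remaining livers and are no separate support. The same holds for the log2 fold changes without these livers that are given for single genes below. In the A54 livers alone, LKO 1 and 2 against control 1, the medians were 1.69 for G2/M, 0.42 for S phase and 0.27 for G1, with no test.

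**Figure D2:**
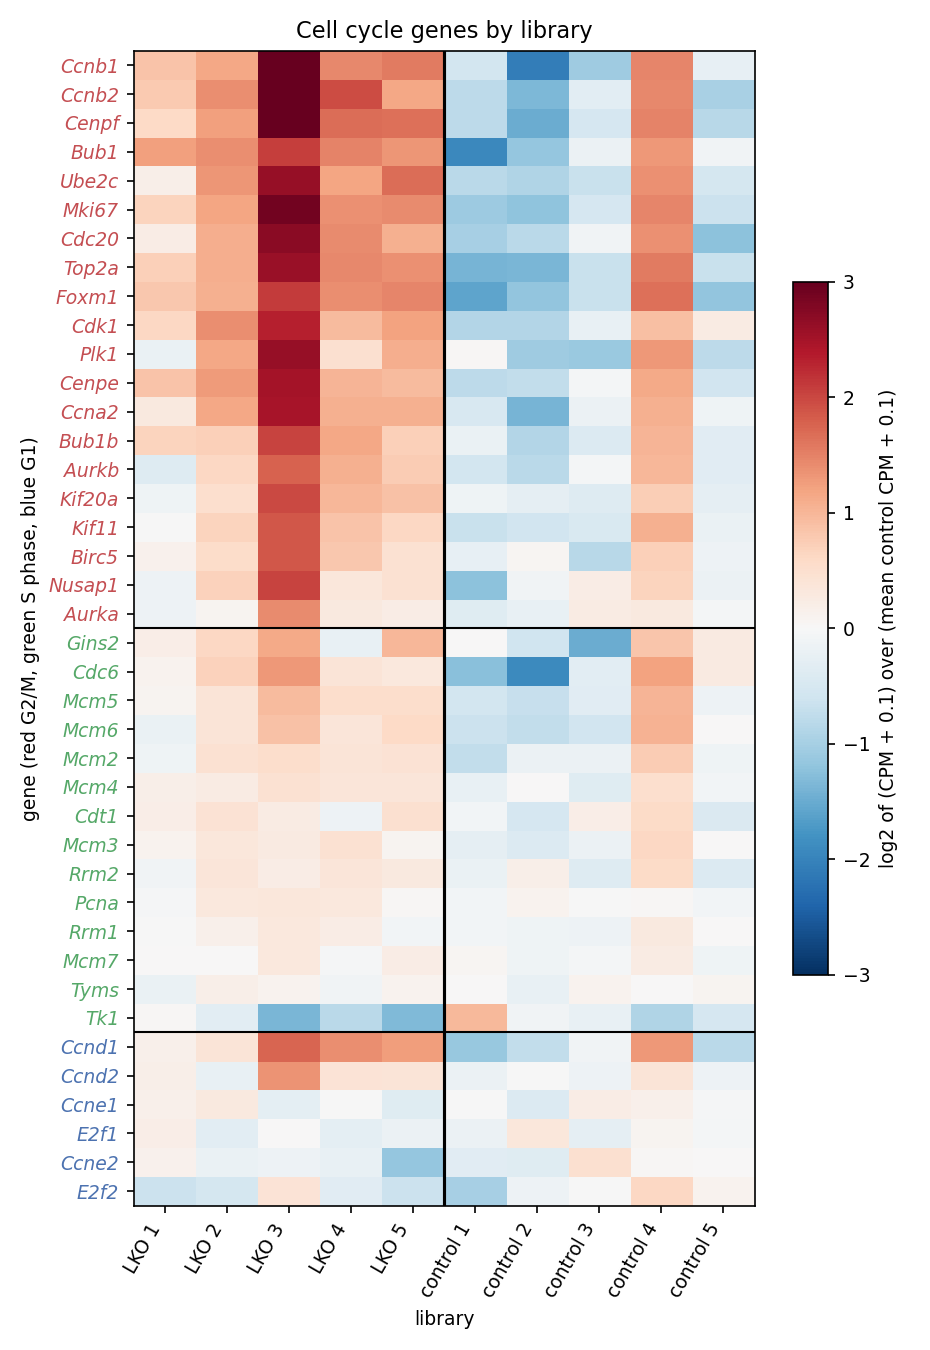
Each cell gives log2 of (CPM + 0.1) over (mean control CPM + 0.1) for 1 gene (rows, grouped as G2/M, S phase and G1) in 1 library (columns, LKO 1 to 5 and then control 1 to 5), with red above and blue below the control mean. Rows of the G2/M block are darkest red in LKO 3, and control 4 is red in all of that block.

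The groups of the whole set overlapped for all 40 genes, where 3.95% of all genes tested had groups that did not overlap, 1.72% with LKO livers higher. Without control 4, all LKO livers lay above all of the remaining controls for 21 of the 40 (16 G2/M, 4 S phase and 1 G1), against 19.1% of all genes in either direction and 11.1% in the higher direction. Without control 4 and LKO 3 it was 21 of the 40, against 21.4% of all genes, 12.4% with LKO livers higher. Without LKO 1 it was 2 of the 40 (Cdk1 and Bub1), against 8.22% of all genes, 3.63% with LKO livers higher.

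Of the 6 G1 genes, the 2 with higher means in LKO livers were the D-type cyclins. Cyclin D1, encoded by Ccnd1, senses growth signals and starts the cycle of hepatocytes. It stood at 37.4, 44.7, 114, 89.4 and 81 CPM in LKO livers 1 to 5, against 15.4, 20.2, 31.7, 83.2 and 19.2 CPM in control livers 1 to 5. LKO 3, 4 and 5 were about as high as control 4 or higher, LKO 1 and 2 lay between control 4 and the other controls, and without control 4 the groups did not overlap. The means were 73.3 ± 32 CPM in LKO and 33.9 ± 28.2 CPM in control livers (SD, n = 5 each), a log2 fold change of 1.11 (SE 0.47, edgeR adjusted p = 0.203). Without control 4 it was 1.76. Ccnd2, the other D-type cyclin of the set, averaged 17.5 ± 7.97 CPM in LKO and 12.2 ± 2.21 CPM in control livers (log2 fold change 0.52), with LKO 3 alone at 31.2 CPM and the other LKO livers within 10.5 to 16.2 CPM.

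Cyclin E2 (Ccne2), which with CDK2 drives the step into S phase, stood at 2.64, 2.08, 2.17, 2.04 and 1.02 CPM in LKO livers, against 1.89, 1.86, 3.37, 2.48 and 2.44 CPM in control livers. The groups overlapped, with LKO 5 the lowest and control 3 the highest, and the log2 fold change was -0.28 (SE 0.26, edgeR adjusted p = 0.534). Ccne1, the gene of cyclin E1, averaged 1.88 ± 0.376 CPM in LKO and 1.91 ± 0.327 CPM in control livers, and the sign of its log2 fold change of -0.02 turned under other scalings (0.00 with upper-quartile scaling and 0.19 with total counts). E2f2, an activator of S phase genes, stood at 1.57, 1.69, 3.32, 1.96 and 1.55 CPM in LKO livers, against 1.21, 2.21, 2.46, 3.87 and 2.7 CPM in control livers. Control 4 was the highest and control 1 the lowest of the 10 livers, and the log2 fold change was -0.30 (SE 0.31, edgeR adjusted p = 0.576). E2f1, the activator most tied to the entry into S phase, averaged 3.82 ± 0.602 CPM in LKO and 4.11 ± 0.731 CPM in control livers (log2 fold change -0.11, or 0.12 when scaled to total counts). In the A54 livers alone the log2 differences of Ccne1, Ccne2, E2f1 and E2f2 were 0.24, 0.30, 0.12 and 0.42, each opposite in sign to that over all livers, and the difference of Ccnd2 was 0.15.

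Among the S phase genes the 6 subunits of the MCM helicase, which unwinds DNA at the replication fork, all had higher means in LKO livers, with log2 fold changes from 0.12 (Mcm7) to 0.54 (Mcm5) and a median of 0.34. Mcm4 had the smallest p of the 6, at 7.82, 8.27, 9.6, 8.91 and 8.99 CPM in LKO livers, against 5.93, 7.02, 5.4, 9.9 and 6.54 CPM in control livers. The 5 LKO livers were all above the 4 other controls and all below control 4. The means were 8.72 ± 0.688 CPM in LKO and 6.96 ± 1.75 CPM in control livers (SD, n = 5 each). The log2 fold change was 0.33 (SE 0.15, edgeR adjusted p = 0.236), and without control 4 it was 0.49. Control 4 was the highest of all 10 livers for Mcm2, Mcm3, Mcm4, Mcm5 and Mcm6.

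Mcm5 averaged 5.6 ± 1.25 CPM in LKO and 3.86 ± 2.28 CPM in control livers, or 2.86 ± 0.481 CPM in the 4 other controls. Gins2, a subunit of the GINS complex that joins the loaded helicase and makes it active, had the largest fold change of the class and low levels, at 0.44, 0.628, 0.936, 0.305 and 0.849 CPM in LKO livers, against 0.378, 0.211, 0.0675, 0.741 and 0.465 CPM in control livers. The groups overlapped, with LKO 4 below 3 of the controls, and the log2 fold change was 0.74 (SE 0.50, edgeR adjusted p = 0.387). Gins2 overlaps Gse1 in the annotation, and Gse1 had a log2 fold change of -0.47. Cdc6 and Cdt1, which place the helicase on origins, had log2 fold changes of 0.71 and 0.28. In single control libraries Cdc6 had as few as 1 count and Gins2 as few as 2.

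Pcna, the sliding clamp that holds DNA polymerase on its template, had the smallest standard error of the 40 genes. It stood at 17.2, 22, 22.3, 22.1 and 18.2 CPM in LKO livers, against 16.8, 19.1, 17.6, 18.2 and 16.8 CPM in control livers. LKO 2, 3 and 4 were above every control, LKO 1 and 5 lay within the control range, and control 4 was sixth of the 10. The log2 fold change was 0.20 (SE 0.09, edgeR adjusted p = 0.223). Of the enzymes that supply nucleotides, Rrm1 and Rrm2, the subunits of ribonucleotide reductase, had log2 fold changes of 0.13 and 0.24, and Tyms, thymidylate synthase, had 0.03.

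Thymidine kinase 1 (Tk1) was the one S phase gene with a lower mean in LKO livers. It stood at 12.1, 9.39, 4.49, 6.69 and 4.69 CPM in LKO livers, against 23.4, 10.9, 10.1, 6.25 and 8.28 CPM in control livers. LKO 3 and 5 held the lowest Tk1 levels of the 10 livers, and control 1 held the highest. The log2 fold change was -0.65 (SE 0.37, edgeR adjusted p = 0.313) and -0.81 without control 4. Tk1 overlaps Afmid, a kynurenine pathway gene on the other strand, which averaged 77.3 CPM in LKO and 107 CPM in control livers (log2 fold change -0.46). The library kit keeps strand, but no source states whether the counting used it, so reads of the 2 genes may not have been told apart.

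**Figure D3:**
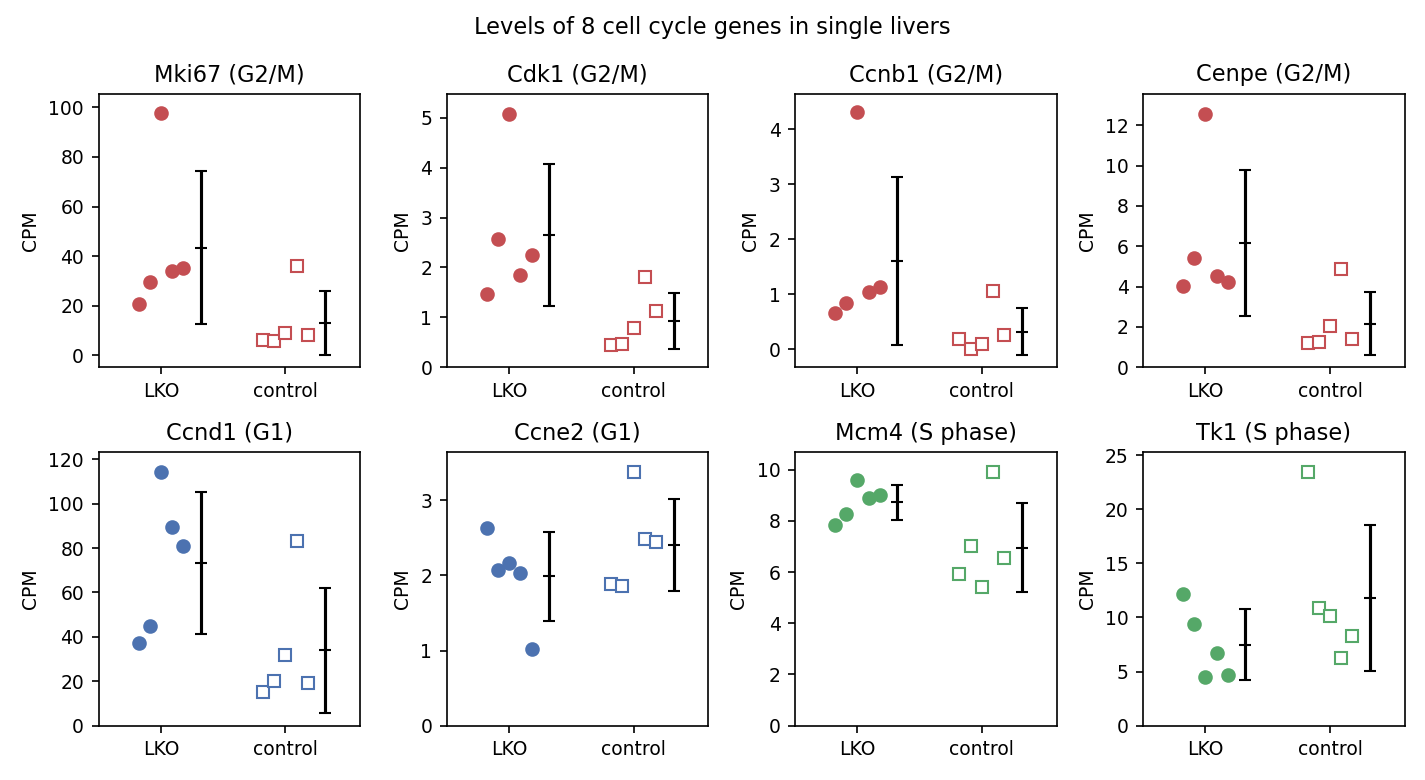
CPM of 8 genes in each liver (vertical axes, linear), with LKO livers as filled circles and control livers as open squares (1 to 5 from left to right), and mean ± SD as bars (n = 5 each). Mki67, Cdk1, Ccnb1 and Cenpe are highest in LKO 3, Mcm4 is highest in control 4, and Tk1 is highest in control 1.

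The engine of mitosis is CDK1 with its cyclins A2, B1 and B2. Cdk1 stood at 1.48, 2.57, 5.08, 1.86 and 2.25 CPM in LKO livers 1 to 5, against 0.453, 0.457, 0.776, 1.81 and 1.12 CPM in control livers 1 to 5. LKO 1 was below control 4, and all LKO livers were above the 4 other controls. The means were 2.65 ± 1.42 CPM in LKO and 0.922 ± 0.565 CPM in control livers (SD, n = 5 each). The log2 fold change was 1.51 (SE 0.44, edgeR adjusted p = 0.122), 1.88 without control 4 and 1.49 without control 4 and LKO 3.

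Ccnb1, the gene of cyclin B1, had the largest fold change of the 40 and some of the lowest levels. It stood at 0.659, 0.847, 4.31, 1.04 and 1.14 CPM in LKO livers, against 0.189, 0, 0.101, 1.06 and 0.256 CPM in control livers. Control 2 had 0 counts, which allows up to 0.105 CPM (3 counts in that library), and LKO 3 was well above all others. The log2 fold change was 2.29 (SE 0.81, edgeR adjusted p = 0.156), and without control 4 it was 3.45. Ccnb2 and Ccna2, the genes of cyclins B2 and A2, had log2 fold changes of 2.04 and 1.45. Foxm1, the factor that switches on mitotic genes, averaged 2.22 ± 0.836 CPM in LKO and 0.76 ± 1.04 CPM in control livers (SD, n = 5 each), with control 4 second of the 10 livers at 2.61 CPM and the 4 other controls at 0.297 ± 0.104 CPM.

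The mitotic kinases and their partner survivin had the lowest median log2 fold change of the roles in this class, 1.03. Birc5 encodes survivin, which, with Aurora B, forms the passenger complex that corrects chromosome attachment. It stood at 2.14, 2.89, 7.41, 3.51 and 2.69 CPM in LKO livers, against 1.62, 2.04, 1.05, 3.29 and 1.75 CPM in control livers. LKO 3 was the highest, control 4 lay above 3 LKO livers, and the log2 fold change was 0.94 (SE 0.38, edgeR adjusted p = 0.183). Aurora A (Aurka), which builds the spindle poles, stood at 1.92, 2.27, 5.88, 2.62 and 2.49 CPM in LKO livers, against 1.62, 1.79, 2.53, 2.64 and 2.02 CPM in control livers. Apart from LKO 3 the LKO livers lay within the control range, and the log2 fold change was 0.52 (SE 0.30, edgeR adjusted p = 0.326), or 0.22 without control 4 and LKO 3. Plk1, the polo-like kinase, and Aurkb, Aurora B, had log2 fold changes of 1.51 and 1.12.

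BUBR1 (Bub1b) and BUB1 keep sister chromatids together until every kinetochore is attached. Bub1b stood at 2.76, 2.87, 7.22, 3.95 and 2.84 CPM in LKO livers, against 1.47, 0.878, 1.25, 3.58 and 1.33 CPM in control livers. All LKO livers were above the 4 other controls, control 4 came after LKO 3 and LKO 4, and the log2 fold change was 1.21 (SE 0.40, edgeR adjusted p = 0.142). Bub1 had a log2 fold change of 1.80 from low levels, 1.0 ± 0.286 CPM in LKO and 0.28 ± 0.33 CPM in control livers (SD, n = 5 each), with 0 counts in control 1, which allows up to 0.113 CPM.

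UBE2C and CDC20 work with the anaphase-promoting complex, which destroys cyclin B and ends mitosis. Ube2c stood at 0.628, 1.5, 3.85, 1.35 and 1.96 CPM in LKO livers, against 0.264, 0.246, 0.304, 1.55 and 0.349 CPM in control livers. LKO 3 was highest, control 4 was above LKO 1, 2 and 4, and the 4 other controls lay close together. The log2 fold change was 1.77 (SE 0.60, edgeR adjusted p = 0.147) and 2.65 without control 4. Cdc20 had a log2 fold change of 1.70. It overlaps Elovl1 in the annotation, and Elovl1 averaged 16.8 CPM in LKO and 13.2 CPM in control livers (log2 fold change 0.35).

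CENP-E is a kinetochore motor that carries chromosomes to the spindle's middle. Its gene Cenpe stood at 4.02, 5.41, 12.6, 4.51 and 4.25 CPM in LKO livers, against 1.21, 1.26, 2.06, 4.87 and 1.42 CPM in control livers. LKO 2 and 3 were above control 4, the other LKO livers were below it, and all LKO livers were above the 4 other controls. The log2 fold change was 1.51 (SE 0.45, edgeR adjusted p = 0.126), and without control 4 and LKO 3 it was 1.6. Cenpf, another kinetochore protein, had 1.98, and the spindle genes Kif11, Kif20a and Nusap1 had 0.96, 1.05 and 0.94 as log2 fold changes. Nusap1 overlaps Oip5 in the annotation, and Oip5 had 0.84.

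Ki-67, the protein most used to mark dividing cells in tissue sections, coats mitotic chromosomes. Its gene Mki67 stood at 20.9, 29.4, 97.8, 34 and 35.1 CPM in LKO livers, against 6.04, 5.58, 9.18, 35.9 and 8.24 CPM in control livers. LKO 3 was far above the rest, control 4 was second, and LKO 1, 2, 4 and 5 were all above the 4 other controls. The means were 43.4 ± 30.9 CPM in LKO and 13 ± 12.9 CPM in control livers (SD, n = 5 each). The log2 fold change was 1.74 (SE 0.58, edgeR adjusted p = 0.142), 2.58 without control 4 and 2.03 without control 4 and LKO 3. Top2a, the topoisomerase that untangles sister chromatids, averaged 12.4 ± 7.12 CPM in LKO and 4.05 ± 4.6 CPM in control livers (log2 fold change 1.61).

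**Figure D4:**
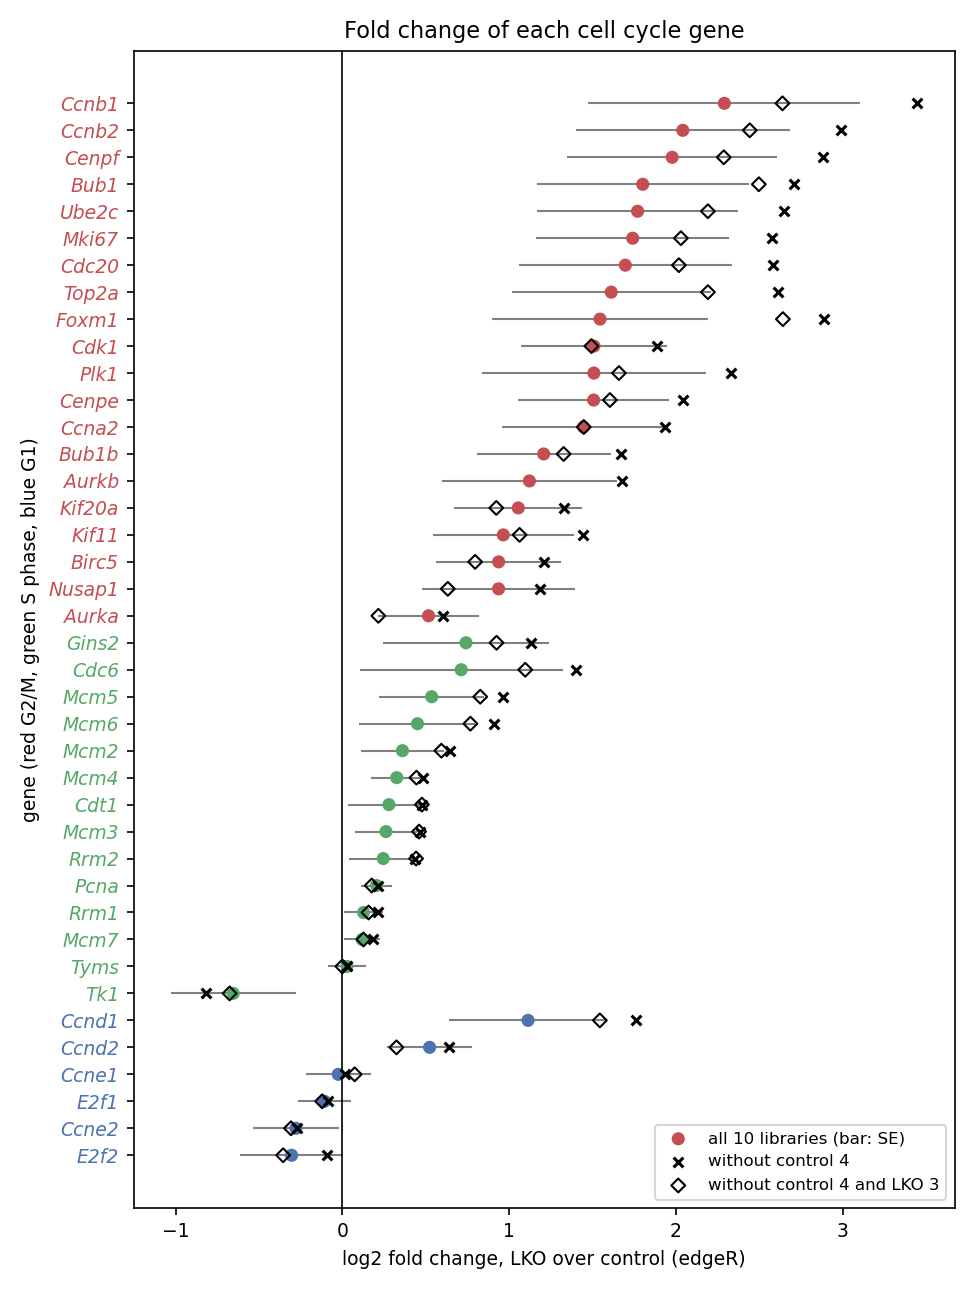
Log2 fold change, LKO over control, of each of the 40 genes (rows, red G2/M, green S phase, blue G1): circles with SE bars are from all 10 libraries, crosses from the fit without control 4, and diamonds from the fit without control 4 and LKO 3, where Aurkb was not tested. All 20 G2/M circles lie above 0, from 0.52 to 2.29, and leaving out control 4 moved each of them to the right.

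S phase and G2/M genes are known for different letters in their promoters, so the RefSeq windows of assembly GRCm38.p6, 250 bases before to 50 after a gene's start, were searched on both strands. For E2F factors the 4 spellings searched were TTCCCGC, then with another middle TTCGCGC, then likewise TTGCCGC, and last of these TTGGCGC. For the cell cycle homology region (CHR), bound by the DREAM and B-MYB complexes, they were TTTGAA and its variant TTCGAA, and for NF-Y the search used CCAAT. Windows were found for 31 of the 40 genes, 33 in all. No window was used for Aurkb, Ccna2, Ccnd1, Ccnd2, Ccne2, Foxm1, Gins2, Kif20a and Mcm4. CHR letters stood in 12 of 16 G2/M windows (75.0%), 2 of 13 S phase windows (15.4%) and 1 of 4 G1 windows (25.0%), against 19.2% of all 32851 windows. E2F letters stood in 3 of 16 G2/M windows (18.8%), 9 of 13 S phase windows (69.2%) and 1 of 4 G1 windows (25.0%), against 9.57% of all. CCAAT stood in 14 of 16 G2/M windows (87.5%), 9 of 13 S phase windows (69.2%) and 2 of 4 G1 windows (50%), against 37.4% of all. The same letters can be shared, as a CCAAT match and an E2F match do in the window of Ccnb1. Not every gene followed its class. Birc5, Ccnb1, Cenpe and Nusap1 of the G2/M class held no CHR letters, and Ccnb1, with the largest fold change of the 40, held an E2F match, as did Cdk1 and Mki67. Of the S phase class, Mcm2 and 1 of the 2 windows of Mcm7 held CHR letters, and Mcm2, Pcna, Tk1 and Tyms held no E2F letters. A match describes the window alone and was not tested against the expression values.

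As examples of these letters, picked because they hold several of them, 3 promoters of G2/M genes and 2 of S phase genes are printed 5′ to 3′ on the gene's strand from 250 bases before to 20 bases after its start, with the E2F, CHR and CCAAT matches in capitals. Cdk1 (chr10:69352893-69353162, minus strand) holds 2 E2F, 2 CHR and 3 CCAAT matches in this stretch, Ccnb2 (chr9:70421535-70421804, minus strand) holds 2 CHR and 3 CCAAT matches, and Top2a (chr11:99024170-99024439, minus strand) holds 4 CHR and 6 CCAAT matches. Mcm5 (chr8:75109259-75109528, plus strand) holds 3 E2F and 3 CCAAT matches and Mcm6 (chr1:128359686-128359955, minus strand) 4 E2F and 2 CCAAT matches, with no CHR letters in either, and the longer runs of capitals in both hold 2 E2F matches that overlap on opposite strands.
Cdk1: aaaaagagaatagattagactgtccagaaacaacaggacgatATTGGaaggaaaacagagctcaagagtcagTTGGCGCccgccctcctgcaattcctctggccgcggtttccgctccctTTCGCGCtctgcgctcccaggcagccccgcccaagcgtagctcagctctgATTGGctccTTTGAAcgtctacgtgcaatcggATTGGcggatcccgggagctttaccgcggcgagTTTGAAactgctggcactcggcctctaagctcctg
Ccnb2: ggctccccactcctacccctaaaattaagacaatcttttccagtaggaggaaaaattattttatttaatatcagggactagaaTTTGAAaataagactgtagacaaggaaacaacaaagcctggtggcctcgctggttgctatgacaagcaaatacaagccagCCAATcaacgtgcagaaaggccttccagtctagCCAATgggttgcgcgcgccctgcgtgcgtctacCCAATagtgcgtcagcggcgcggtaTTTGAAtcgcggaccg
Top2a: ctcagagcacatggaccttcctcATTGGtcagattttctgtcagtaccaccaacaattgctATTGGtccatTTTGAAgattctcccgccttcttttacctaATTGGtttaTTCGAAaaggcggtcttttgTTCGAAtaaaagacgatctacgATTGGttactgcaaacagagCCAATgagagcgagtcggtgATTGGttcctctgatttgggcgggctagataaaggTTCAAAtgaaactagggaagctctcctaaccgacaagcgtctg
Mcm5: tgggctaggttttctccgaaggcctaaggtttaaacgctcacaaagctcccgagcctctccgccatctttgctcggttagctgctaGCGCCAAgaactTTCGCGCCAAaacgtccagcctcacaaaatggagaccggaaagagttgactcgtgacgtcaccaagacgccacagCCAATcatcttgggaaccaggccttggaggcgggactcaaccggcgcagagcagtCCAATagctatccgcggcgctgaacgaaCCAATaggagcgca
Mcm6: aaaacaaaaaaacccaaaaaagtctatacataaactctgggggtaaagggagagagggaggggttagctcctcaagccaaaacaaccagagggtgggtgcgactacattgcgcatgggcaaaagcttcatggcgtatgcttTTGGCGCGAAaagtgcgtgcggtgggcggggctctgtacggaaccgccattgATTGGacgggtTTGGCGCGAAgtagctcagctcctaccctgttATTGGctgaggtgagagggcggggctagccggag
Beside these letters, the log2 fold changes were 1.51 for Cdk1, 2.04 for Ccnb2 and 1.61 for Top2a, and 0.54 for Mcm5 and 0.45 for Mcm6.

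Levels of different genes were compared as mean CPM per kilobase of exon, with exon lengths from GENCODE vM21. Ccnd1 was the highest of the 40 in LKO livers, at 19.6 ± 8.55 CPM per kilobase, against 9.07 ± 7.54 in control livers (SD, n = 5 each), where it was second. Pcna was second in LKO livers, at 13.4 ± 1.61 CPM per kilobase, against 11.6 ± 0.65 in control livers, where it was first, and the 2 genes differed by less than the SD of Ccnd1 in both groups. Mki67 ranked 4 in LKO livers and 13 in control livers, at 4.32 ± 3.07 CPM per kilobase against 1.29 ± 1.28, and Ccnb2 ranked 11 in LKO and 23 in control livers. Bub1, Gins2 and Cdc6 were the lowest in both groups, with LKO means between 0.142 and 0.292 and control means between 0.0819 and 0.0955 CPM per kilobase. In control libraries single G2/M genes rested on 0 to 1115 counts, and in LKO libraries on 7 to 3656 counts.

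A wider list of 107 other cell cycle genes, of which 104 were tested, had 0 called by edgeR, 35 at an unadjusted p under 0.05 (29 higher and 6 lower, where 22.3% of all genes were under it) and a median log2 fold change of 0.29, with 79 higher and 25 lower. DESeq2 called 14 of these genes, against 7.79% of all genes, and voom with quality weights 36, against 16.2%. Without control 4 edgeR called 38 (35 higher and 3 lower), against 15.0% of all genes. Other mitosis genes had a median log2 fold change of 0.94, with 44 of 49 higher. The 3 with the smallest p were Cdc25b, a phosphatase that activates CDK1 (2.7 ± 0.872 CPM in LKO and 1.21 ± 0.368 CPM in control livers, log2 fold change 1.15, edgeR adjusted p = 0.0921), the kinase gene Melk (1.53, edgeR adjusted p = 0.103) and the condensin gene Ncapg (2.10, edgeR adjusted p = 0.107). The groups did not overlap for Cdc25b, Melk and 2 other tested genes of the list, Cdkn2b and Cdk2, which is 4 of 104 and near the 3.95% of all genes.

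Other replication genes had a median of 0.06, with 16 of 23 higher, and the 2 smallest p-values were of genes with lower means in LKO livers. Gins1, a partner of Gins2 in the GINS complex, had -0.66 (edgeR adjusted p = 0.147), and Mcm10, which helps start replication, had -0.71 (edgeR adjusted p = 0.152). Pocket proteins, E2F factors and DREAM subunits had a median of -0.04, with 7 of 16 higher, and Lin52, E2f3 and Lin37 had log2 fold changes of -0.50, -0.19 and 0.20. Among the checkpoint kinases, 3 of 6 were higher, and Pkmyt1, Chek1 and Atm had 1.09, 0.87 and -0.14.

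The 6 tested inhibitors of cyclin-dependent kinases, which hold cells back from division, had log2 fold changes from 0.003 to 1.56, with a median of 0.37. Cdkn2b, which encodes p15 and blocks CDK4 and CDK6, stood at 0.942, 0.628, 0.963, 0.433 and 0.586 CPM in LKO livers, against 0.189, 0.211, 0.236, 0.161 and 0.372 CPM in control livers. Every LKO liver was above every control, control 4 was the lowest of the 10, and the log2 fold change was 1.56 (SE 0.33, edgeR adjusted p = 0.0839). Cdkn1a, the p53 target that encodes p21, stood at 4.65, 4.7, 23.1, 6.47 and 15.6 CPM in LKO livers, against 1.4, 2.42, 2.8, 14.8 and 1.47 CPM in control livers. LKO 3, LKO 5 and control 4 were the highest, and the log2 fold change was 1.25 (SE 0.71, edgeR adjusted p = 0.309). Cdkn2c, the gene of p18, had 0.66. Of the G1 kinases and the D-type cyclin outside the set, Cdk4 had 0.28 (edgeR adjusted p = 0.14), Cdk2 had -0.21 with every LKO liver below every control (edgeR adjusted p = 0.192), and Ccnd3 had 0.13.

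Several lists of markers of other liver cells were highest in LKO 3 and, among the controls, in control 4. All 10 markers of recruited macrophages were detected, and their summed level was 206 to 799 CPM in LKO livers, highest in LKO 3, and 86.4 to 459 CPM in control livers, highest in control 4, with the 4 other controls at no more than 115 CPM. The 6 cholangiocyte markers, which share Spp1 with the macrophage list, summed to 28.2, 52.2, 367, 44 and 219 CPM in LKO livers 1 to 5. In control livers they summed to 23.3 to 158 CPM (control 4 highest, the others up to 32.7 CPM), and Cftr was at 0 in at least 1 library. Spp1 made up most of this sum in LKO livers, with a mean of 122 CPM where the sum averaged 142 CPM. The 9 stellate cell markers summed to 566 to 1252 CPM in LKO livers (LKO 3 highest) and 389 to 877 CPM in control livers (control 4 highest).

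The 10 T and NK cell markers, with Klrb1c at 0 in some libraries, summed to 4.04 to 9.68 CPM in LKO and 3.09 to 7.83 CPM in control livers, again with LKO 3 and control 4 highest in their groups. The 6 B and plasma cell markers summed to 2.09 to 3.69 CPM in LKO and 1.75 to 2.97 CPM in control livers. Sums of the 9 Kupffer cell markers were 335 to 533 CPM in LKO and 259 to 353 CPM in control livers, and of the 8 endothelial markers 398 to 629 CPM in LKO and 399 to 469.5 CPM in control livers. In neither of those lists was LKO 3 or control 4 the highest of its group. The 10 hepatocyte markers, Alb among them, were all detected, as the labelled tissue calls for, and summed to 41427 to 63806 CPM in LKO livers (LKO 3 lowest) and 48217 to 84635 CPM in control livers (control 4 lowest). The part of these cells in the levels of the cell cycle genes was not tested, and in whole liver a larger number of cells of a type and more RNA per cell cannot be told apart.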

How the data were processed

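Per the labels' protocols, TRIzol extracts of frozen livers were depleted of ribosomal RNA, and stranded libraries were read from 1 end on 1 NovaSeq lane. The authors deposited whole-number counts per gene and library, not normalized, with an NCBI Gene number for each. In the submitters' processing notes the tools bcl2fastq 2.20 and DESeq2 and the build GRCm39 are named; no source used here gives the aligner, the counter, its use of strand or the gene models. All 10 columns were matched by name. Symbols and promoters came from RefSeq tables of GRCm38.p6 (25275 of 27179 genes had a symbol) and exon lengths from GENCODE vM21.

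The test was edgeR 4.0.16 in R 4.3.3 (filterByExpr, TMM scaling, quasi-likelihood F test with the legacy option, two-sided, genotype as the only term), with Benjamini-Hochberg adjustment over 15226 genes and a threshold of 0.05. CPM values are TMM-scaled, class levels used log2 CPM with a prior count of 2, and the common biological coefficient of variation was 0.242. Depth is given in the report, and the limit for a gene with 0 counts is 3 counts, which covers counting error only. No 2 libraries of a group agreed within sampling noise. The tests were tried on simulated counts of 15093 genes for LKO against control, with 100 genes set to a 2-fold and 100 to a 4-fold difference. Of these, edgeR found 69 and 98 (6 false calls), DESeq2 80 and 99 (32 false calls) and voom with quality weights 68 and 97 (6 false calls). The simulated counts were drawn gene by gene, with no shift shared by the genes of a liver, and genes of low level were not among those changed. The rates thus do not tell how often differences like those of the G2/M genes would be found.

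Alternatives were other scalings and low-count filters, DESeq2 1.42.0, limma 3.58.1 voom with quality weights, other edgeR options, a threshold of 0.1, a replicate block, a term for the title code, the A54 libraries alone, and leaving out each library or control 4 with LKO 3. The replicate numbers of the 2 groups do not pair the mice.

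The members and all lists were chosen with earlier results of these data known, so lists are described by counts and medians, with no test of their own. Values in every library are given for the gene with the smallest p in each role and for the genes with the largest and smallest fold change in each class, beside Lpcat3. For each part of the wider list up to 3 genes with the smallest p were named, with fold changes; Cdkn2b and Cdkn1a were given in every library after their values were seen. In the annotation 15 of the 40 genes overlap another gene, 12 of them a protein-coding one. Figures were drawn with matplotlib 3.10.9.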

Additional observations from a re-analysis of the deposited data

Results flagged for a closer look

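In 36 of 80 checks (each of the 40 genes in each group of 5 livers), the highest or lowest liver was set apart from its group by a gap of more than 0.71 of the group's range. Chance flags about 1 in 20 such groups if values are normally distributed. The checks used CPM on its linear scale, where that rate need not hold, and genes of 1 liver are not independent. LKO 3 was the high liver in 15 checks and control 4 in 19, and 2 concerned other livers. The part of cell makeup, RNA quality or handling in these livers was not tested.

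LKO 3 stood apart in 13 G2/M genes and 2 G1 genes. Its CPM was 97.8 for Mki67, 24.7 for Top2a, 23.4 for Cenpf, 12.6 for Cenpe and 10.6 for Ccna2. It was 7.41 for Birc5, 7.22 for Bub1b, 5.88 for Aurka, 5.62 for Nusap1 and 4.68 for Cdc20. It was 4.31 for Ccnb1, 3.93 for Plk1 and 1.5 for Bub1, and among the G1 genes 31.2 for Ccnd2 and 3.32 for E2f2.

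Control 4 stood apart in 14 G2/M, 3 S phase and 2 G1 genes. Its CPM was 35.9 for Mki67, 12.2 for Top2a, 7.29 for Cenpf, 4.87 for Cenpe and 4.22 for Kif11. It was 3.58 for Bub1b, 3.13 for Kif20a, 2.61 for Foxm1, 2.29 for Ccnb2 and 1.77 for Cdc20. It was 1.55 for Ube2c, 1.52 for Plk1, 1.06 for Ccnb1 and 0.741 for Aurkb. The S phase values were 10.1 for Mcm6, 8.64 for Mcm2 and 7.87 for Mcm5, and the G1 values 83.2 for Ccnd1 and 16.1 for Ccnd2.

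LKO 1 was apart on the low side for Mcm2, at 4.62 CPM, and control 1 on the high side for Tk1, at 23.4 CPM.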

How the results depend on the processing

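The G2/M median log2 fold change stayed between 1.09 and 2.19 under the alternatives run, lowest without LKO 3 and highest without control 4, and no G2/M gene turned in sign. Called members were 0 under the other scalings, filters, edgeR options and the threshold of 0.1. At that threshold 2 of the 104 tested genes of the wider list were called, beside 150 higher and 146 lower of all 15226 genes. DESeq2 called 6 members, all 6 G2/M, and 14 of the wider list, against 7.79% of all genes. Voom with quality weights called 20 (1 G1, 3 S phase, 16 G2/M) and 36 of the wider list, against 16.2% of all genes. Its S phase median was 0.42. Leaving out 1 library at a time gave 0 to 23 members called (G1 0 to 1, S phase 0 to 5, G2/M 0 to 17), 0 to 38 of the wider list, an S phase median of 0.21 to 0.47, and 0 to 21 members whose groups did not overlap. Control 4 gave every upper end of these ranges, where 15.0% of all genes were called and 19.1% had groups that did not overlap. Of the other libraries LKO 1 alone freed members from overlap (2 of 40, against 8.22% of all genes). Without control 4 and LKO 3 there were 23 called (1 G1, 5 S phase, 17 G2/M) and 37 of the wider list, against 15.6% of all genes. There 21 were without overlap (21.4% of all genes, 12.4% as higher), and the S phase median was 0.45.

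The S phase median was 0.47 with total counts, where the median of all genes moved as well. With the title code as a covariate, the G1 median was 0.28 and the S phase median 0.44, and Lpcat3 stood at -1.99. The genotype difference in that fit comes from the A54 livers alone, so it is nearly the same comparison as the A54 libraries by themselves, where the G1 median was 0.27.

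Signs turned for 6 genes, whose log2 fold changes over all livers lay between -0.30 (E2f2) and 0.12 (Mcm7). Ccne1 went to 0.0028 with upper-quartile scaling, 0.19 with total counts, 0.060 with voom, 0.25 with the title code, 0.24 in A54, 0.073 without both livers and -0.12 to 0.052 leaving out 1 library. E2f1 went to 0.12 with total counts, 0.14 with the title code and 0.12 in A54, Ccne2 to 0.32 and 0.30 in those last settings, and E2f2 to 0.43 and 0.42. Tyms went to -0.013 with the title code, -0.026 in A54, -0.00024 without both livers and -0.028 to 0.077 leaving out 1 library. Mcm7 went to -0.049 both with the title code and in A54. The values with the title code and in A54 rest on the same A54 livers and are not separate. The cause of these changes was not tested.

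With the replicate number as a block, 0 members and 0 genes of the wider list were called, with medians of -0.07 for G1, 0.31 for S phase and 1.57 for G2/M. Residual correlations of same-numbered livers were 0.42, 0.21, -0.23, -0.40 and -0.02 for numbers 1 to 5, so the livers did not deviate together under every number, and LKO 1 and control 1 also share the title code A54. Counts of 0 to 3 in single control libraries limit what Ccnb1, Bub1, Cdc6 and Gins2 can show.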
